A study of Mus musculus with 28 samples.

Results

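The BAF (Brg1/Brm-associated factor) subunit genes described here are 10 genes taken by name from the GENCODE annotation of the mm9 mouse genome, and all 10 were found among its 22238 protein-coding genes. They encode the alternative ATPases of the complex (*Smarca4*, which encodes Brg1, and *Smarca2*, which encodes Brm), core subunits (*Smarcb1*, *Smarcc1* and *Smarcc2*), the Baf60 subunits (*Smarcd1*, *Smarcd2* and *Smarcd3*) and the ARID subunits (*Arid1a* and *Arid1b*). They were listed by name and not by their values, although earlier results of these data were known when the list was made. For each gene it was asked whether Brg1 was bound at the gene, and whether acetylation of histone H3 at lysine 27 (H3K27ac) there differed once *Brg1* was deleted.

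BAF complexes use ATP to move or evict nucleosomes. Each complex holds a single ATPase, Brg1 or Brm, and paralogous subunits such as the Baf60 proteins replace each other in different cell types, with Baf60c, the product of *Smarcd3*, known for its role in heart development. H3K27ac marks active promoters and enhancers, and trimethylation of the same residue (H3K27me3) is deposited by Polycomb repressive complex 2, of which Suz12 is a subunit.

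Mouse embryonic stem cells (ESCs) were differentiated as embryoid bodies and reaggregated for 40 h with VEGF, activin A and BMP4, which gives mesoderm-stage cultures at day 4. For H3K27ac, H3K27me3 and Suz12, cells carrying floxed *Brg1* alleles and an *Actin-CreER* transgene (*Brg1*f/f;*Actin-CreER*) received 200 nM 4-hydroxytamoxifen (4-OHT) in tetrahydrofuran (THF) from day 2, which deletes *Brg1*, or THF alone as control. Untreated Brg1-FLAG chromatin came from cells to which the labels give the same floxed genotype, whereas the study's results name ESCs with a FLAG tag at the endogenous *Brg1* gene. The labels describe biological duplicates for H3K27ac (2 control, 2 4-OHT) and Suz12 (2 and 2) and triplicates for H3K27me3 (3 and 3) and FLAG (3), whereas the study's methods give FLAG as done in duplicate. Both arms of the mark comparisons carry the floxed alleles and the Cre transgene, and no group received 4-OHT without floxed alleles. Because each sample is a mixed culture, a change in the mark per cell and a change in the share of cells that carry it cannot be told apart.

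Each of the 17 lists gives the enriched regions of 1 replicate with no score or read number, so read depth is unknown, and how many regions a list holds and how much of the genome they cover are given in its place. FLAG replicates 1 and 2 listed 8021 and 8257 regions over 1.08 and 1.34 Mb, whereas replicate 3 listed 192 regions over 0.0250 Mb. FLAG regions that overlapped were merged, and the 2390 merged regions with 2 or 3 replicates are called Brg1-bound. Without replicate 3 there were 2363, so the bound set rests almost wholly on replicates 1 and 2. The control H3K27ac lists held 37590 and 41062 regions over 28.0 and 30.8 Mb and the 4-OHT lists 36000 and 32161 regions over 28.5 and 26.1 Mb. Mark changes are given as listed length, the base pairs of a window inside listed regions, and a gene was counted as higher or lower only when both 4-OHT replicates lay beyond both control replicates. With 2 against 2 replicates the two-sided exact permutation test cannot give a p under 0.333, so no single difference in H3K27ac could pass a threshold of 0.05 by this test. The exact sign-flip test over 2 same-numbered pairs cannot go under 0.5.

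The labelled mesodermal state was looked up in H3K27ac near the start sites of marker genes. In both control replicates H3K27ac was listed within 5 kb of the transcriptional start site (TSS) of *T*, *Mesp1*, *Mixl1*, *Eomes* and *Pdgfra*, and at neither of the neural genes *Pax6* and *Neurog2*, while *Kdr*, a mesodermal receptor gene, also had none within that window. After 4-OHT some of these markers had less. *T* had 2188 and 2563 bp in controls and 1588 and 1988 bp after 4-OHT, and *Mesp1* had 5227 and 6876 bp against 3576 and 4551 bp. Within 50 kb of its TSS *Kdr* had 8450 and 15150 bp against 2625 and 4325 bp. At *Mixl1*, *Eomes* and *Pdgfra* the arms overlapped within 5 kb, with each same-numbered pair lower. Within 50 kb *Mixl1* (10586 and 13611 bp against 6736 and 9736 bp) and *Eomes* (13675 and 21200 bp against 8575 and 12125 bp) were lower too, as were *T* and *Mesp1*. At *Pdgfra* the arms still overlapped in that window, with 4475 and 8125 bp in controls and 3125 and 5350 bp after 4-OHT. A change at a BAF gene and a change in the state or mix of the cells cannot be told apart. *Sox1* was not matched by symbol. The lists do not read the floxed exons, so deletion of *Brg1* was not checked here.

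Brg1-bound regions lay at some of the BAF subunit genes, at a larger share than of all genes, and none was called at *Smarca4* itself. The study describes its FLAG enrichment as modest and its bound regions as a conservative estimate. A gene without a called region is therefore not shown to lack Brg1. Within 5 kb of the TSS a Brg1-bound region lay at 2 of 10 members, *Smarcd2* and *Arid1a*, against 2.11% of all protein-coding genes. In the gene body the count was 3 of 10 (*Smarca2*, *Smarcd2* and *Arid1a*, against 3.64% of genes), and within 50 kb of the TSS it was 4 of 10 (*Smarcb1*, *Smarcd2*, *Smarcd3* and *Arid1a*, against 9.34% of genes). The members are longer than most genes, with a median of 54.4 kb against 15.5 kb, which bears on the gene-body count. H3K27ac lay within 5 kb of the TSS at 8 of 10 members, against 47.7% of all genes. A background limited to genes with H3K27ac was not tested. No member region was listed in FLAG replicate 3, and requiring replicate 3 together with either other replicate left 0 members in every window.

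At *Smarca4* (chr9:21420613-21508674, plus strand), the FLAG lists gave a single 25 bp region, chr9:21420126-21420150, at -0.475 kb from the TSS, in replicate 1 alone. It lay inside the H3K27ac region of the promoter, but replicates 2 and 3 listed nothing within 5 kb, and no Brg1-bound region lay within 50 kb or in the gene. Regions in only 1 FLAG list were common. Counting a region in any replicate, 5 of 10 members had one within 5 kb of the TSS (*Smarca4*, *Smarcc2*, *Smarcd2*, *Arid1a* and *Arid1b*), against 14.1% of all genes. In the gene body 5 of 10 had such a region, against 15% of all genes, and within 50 kb 8 of 10, against 38.1%.

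*Arid1a*, which encodes an ARID subunit of canonical BAF, had the Brg1-bound region closest to a first TSS among the 10 genes. Its Brg1-bound region, chr4:133312151-133312600, was centred 0.308 kb downstream of the TSS and covered 450 bp in FLAG replicate 1 and 125 bp in replicate 2, across the end of the first exon and the start of the first intron. Beside it, replicate 2 listed 275 bp at chr4:133312951-133313225, at -0.405 kb from the TSS, and replicate 1 listed 150 bp at chr4:133310476-133310625 in the intron. All of these lay in an H3K27ac region that spans chr4:133305926-133314100 over the lists. H3K27ac covered the whole Brg1-bound region in both control and both 4-OHT replicates. *Arid1b*, its paralog, had FLAG regions in 1 list each: 175 bp at chr17:4996826-4997000 in replicate 2, 2.58 kb downstream of the TSS, and 4 further intronic regions of 75 to 275 bp, none shared between replicates.

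*Smarcd2*, 1 of the 3 Baf60 genes, was bound inside the gene rather than at its first TSS. Near that TSS, 0.61 kb downstream, FLAG replicate 2 alone listed 50 bp, chr11:106133651-106133700, inside H3K27ac in all 4 lists. The Brg1-bound region, chr11:106129101-106129300, was listed over 200 bp in FLAG replicate 1 and 175 bp in replicate 2. It was centred 5.08 kb from the TSS, so only its edge fell inside the 5 kb window, and with a narrower window *Arid1a* was the sole member left. The region contains the TSS of a shorter protein-coding transcript of *Smarcd2* at position 106129113. H3K27ac covered all 200 bp of this Brg1-bound region in both control replicates and 0 bp in both 4-OHT replicates. Of the 5 Brg1-bound regions described here, it was the only one inside H3K27ac in the controls and outside it after 4-OHT.

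The other 3 bound regions lay away from promoters. In *Smarca2*, chr19:26750576-26750750 lay in an intron 71.0 kb downstream of the TSS, with 100 bp listed in each of FLAG replicates 1 and 2, and no H3K27ac list covered it. *Smarcb1*, which encodes the core subunit Snf5, had a bound region beyond its 3′ end, chr10:75345551-75345900, 38.6 kb from the TSS in intergenic sequence. All 4 H3K27ac lists covered that region in full, while the H3K27ac region around it, chr10:75343776-75346525, had 2200 and 2675 bp in controls and 2150 and 2150 bp after 4-OHT, lower in both. The bound region near *Smarcd3*, chr5:24114776-24114950, lay at -7.03 kb from the TSS outside any annotated gene, with 150 and 50 bp listed in replicates 1 and 2 and no H3K27ac in any list. It was not bound with regions under 100 bp left out. For *Smarcc1* no FLAG region of any kind met these windows, *Smarcd1* had 425 bp within 50 kb in replicate 2 alone, and *Smarcc2* had 100 bp in replicate 2, 0.959 kb downstream of its TSS. Within 50 kb of that TSS replicate 1 listed 175 bp at other places, so none of it was bound.

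The bases listed by both FLAG replicates 1 and 2 are shown for the bound regions in or within 5 kb of a member, to show what sequence the finding rests on (mm9, plus strand). For *Arid1a* the 16 bases in the untranslated part of the exon are left out, and the 109 bases printed, chr4:133312201-133312309, lie in the intron.
Arid1a: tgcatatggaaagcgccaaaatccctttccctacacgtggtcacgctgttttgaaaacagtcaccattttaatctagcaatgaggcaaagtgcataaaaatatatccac
Smarcd2: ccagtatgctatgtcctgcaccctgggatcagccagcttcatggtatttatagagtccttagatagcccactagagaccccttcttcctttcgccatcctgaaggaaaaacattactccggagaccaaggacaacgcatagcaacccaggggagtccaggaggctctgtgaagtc
Smarca2: ccctggggcaggctggtcgcaatcc
The *Smarcd2* run is chr11:106129126-106129300, just upstream of the shorter transcript's TSS, and the *Smarca2* run, chr19:26750651-26750675, is 25 bases long. Their GC contents were 40.4% (*Arid1a*), 51.4% (*Smarcd2*) and 72.0% (*Smarca2*), against 46.4% over all bases of the 2390 bound regions. Exact matches to 6 short motifs, for the GC box and for AP-1, GATA, Fox, Ets and T-box factors, were searched on both strands, and none was present in these 3 regions, so no letters are in capitals. Over all 2390 bound regions the shares with a match were 9.67% for the GC box, 9.25% for AP-1, 6.15% for GATA, 5.52% for Fox, 2.22% for Ets and 1.76% for T-box motifs. Absence says only that the exact letters are not in these regions.

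**Figure D1:**
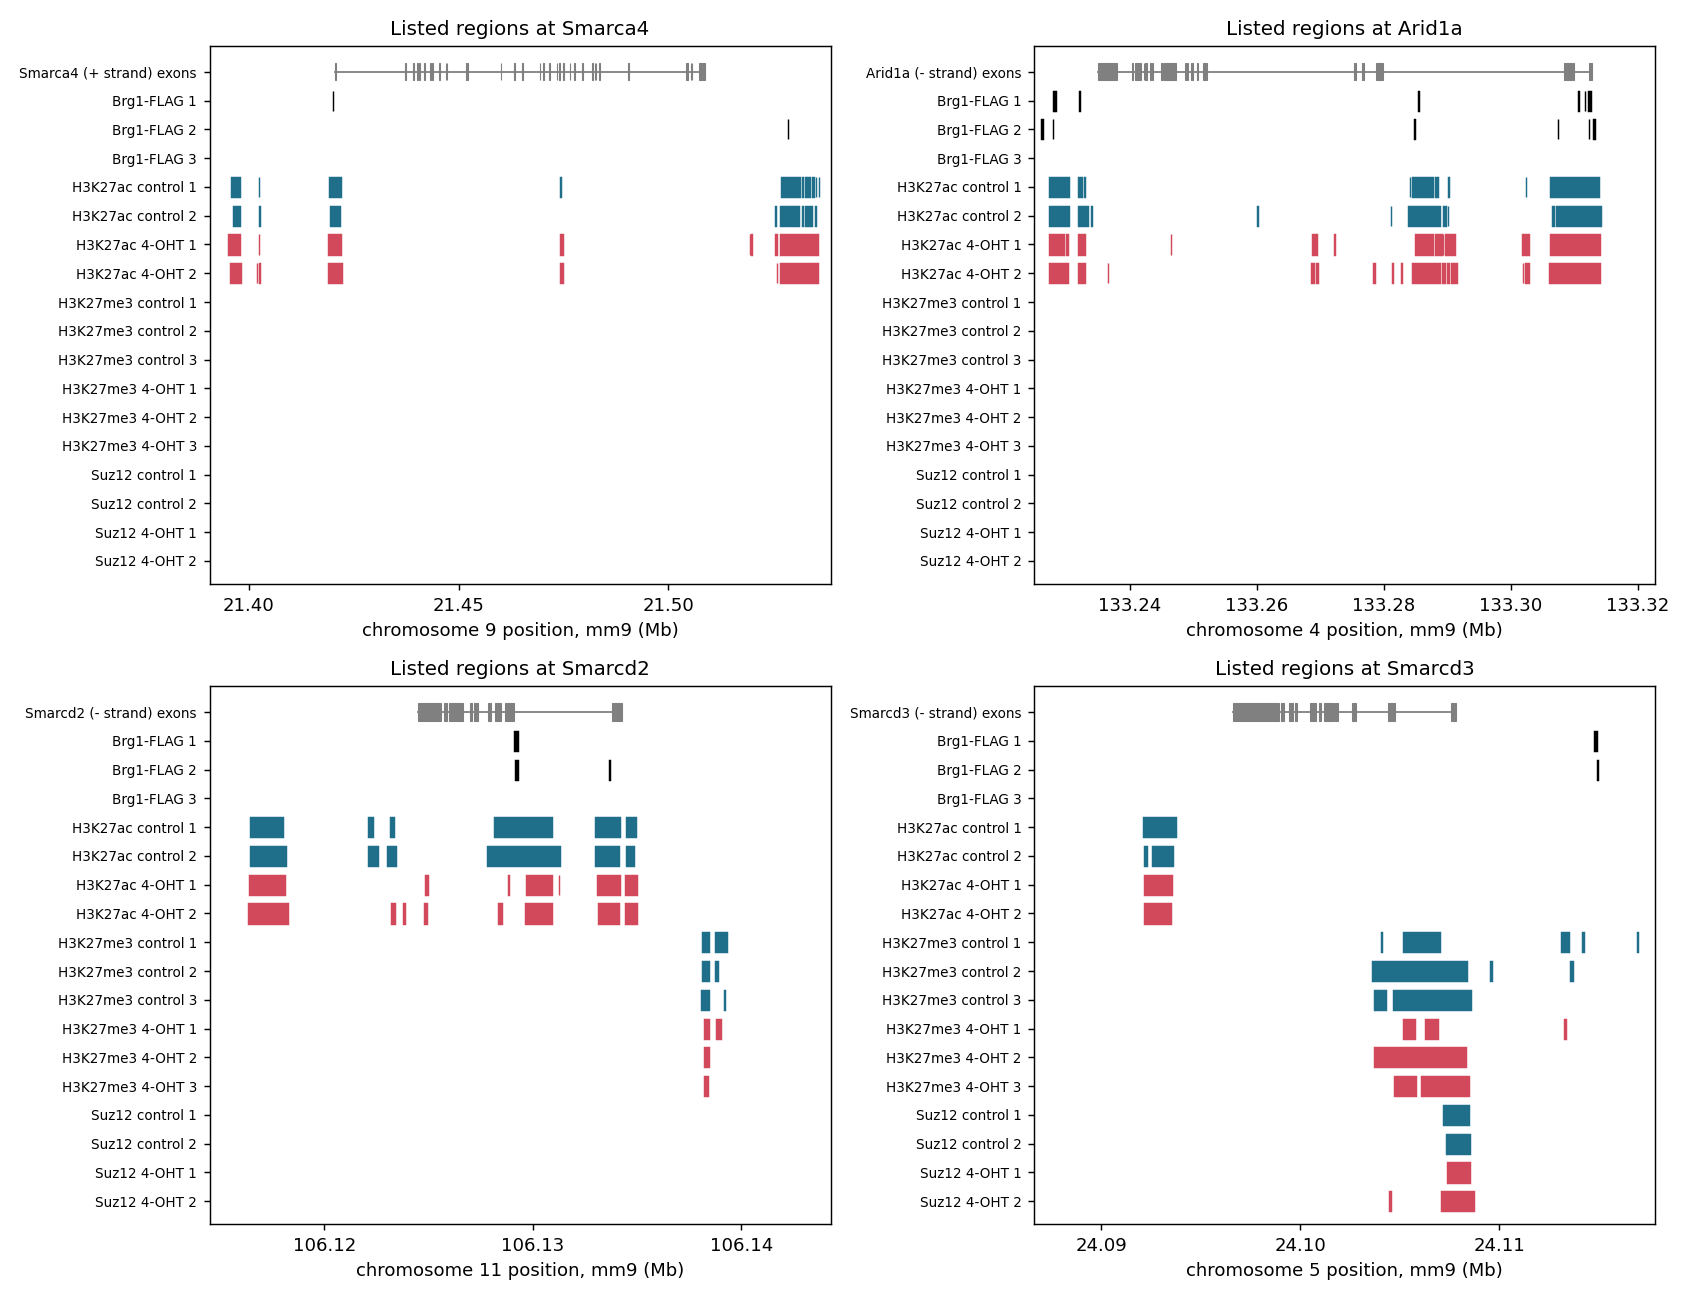
Maps of 4 loci on mm9 (x axis, position in Mb), with exons in grey above a row for each of the 17 lists. Bars are listed regions (black, Brg1-FLAG; blue, control; red, 4-OHT), drawn to scale except that the narrowest are widened to the line width. At *Smarcd2* the Brg1-bound region lies inside control H3K27ac and in a gap of both 4-OHT rows.

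H3K27ac was listed within 5 kb of the TSS in both control replicates at 8 of 10 members, against 47.7% of protein-coding genes. The exceptions, *Smarca2* and *Smarcd3*, had none there in any of the 4 lists. With every annotated TSS used, *Smarca2* was added, which made 9. After 4-OHT the 8 genes kept H3K27ac in both replicates, and the listed length was higher at 3 (*Smarca4*, *Smarcb1* and *Smarcd1*, against 39.7% of genes with H3K27ac in the window) and lower at 1 (*Smarcd2*, against 12.5%). These shares, 37.5% and 12.5% of the 8 members with H3K27ac, were close to those of all genes. They depended on single lists: without control replicate 1, 3 genes were lower, without control replicate 2, 6 were higher, and without 4-OHT replicate 2, 5 were higher. The median log2 ratio of 4-OHT over control was 0.05 for the members and 0.15 for all 11973 genes with H3K27ac in the window. With each list divided by its total covered length these medians were 0.15 and 0.25. Leaving out 1 replicate gave 0.01 to 0.09 for the members.

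In wider windows more of the members had longer H3K27ac after 4-OHT. In the gene body, 6 of the 9 members with H3K27ac were higher and 2 were lower. Of the 12485 genes with H3K27ac in the gene body, 33.4% were higher and 18.3% lower. The median log2 ratio was 0.37 for the members and 0.12 for those genes. Within 50 kb of the TSS, 6 of 9 were higher and 1 was lower, against 39.7% and 20% of the 17138 genes with H3K27ac there. The medians were 0.19 and 0.13. In H3K27ac comparisons here and below, all genes means the genes with H3K27ac in the window. The members' median within 50 kb was 0.11 without 4-OHT replicate 1 and 0.12 without control replicate 2. In the gene body it was 0.25 without 4-OHT replicate 1. With regions under 500 bp left out, *Smarcc1* and *Arid1b* were not higher within 50 kb, which left 4, and with regions within 1 kb joined *Arid1b* was not higher in the gene body. The windows overlap, so these are not separate pieces of evidence. Of the members called higher or lower in the gene body, 75% were higher, against 64.6% of all genes so called. Within 50 kb these shares were 85.7% and 66.5%. After scaling to the total covered length, 6 of 9 members were higher in the gene body, against 43.7% of all genes. The members are also longer than most genes, which bears on the gene-body values. Dividing each list by its total covered length raised the median within 50 kb from 0.13 to 0.23 for all genes and from 0.19 to 0.29 for the members, since the 4-OHT lists cover 0.930 times the length of the controls. Within 5 kb that scaling added *Smarcc1* and *Arid1b* to the genes that were higher, which made 5 of 8, while the share over all genes went from 39.7% to 51.2%.

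**Figure D2:**
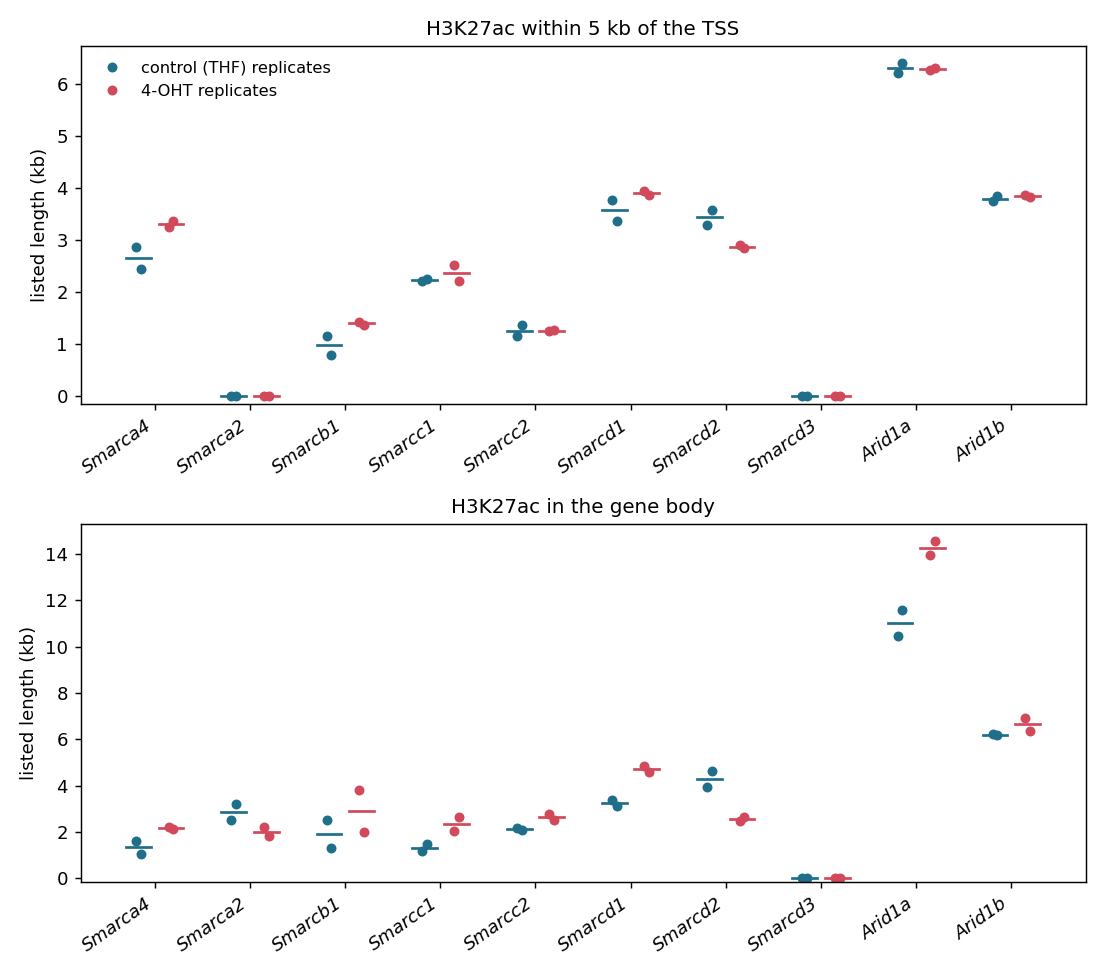
Listed length of H3K27ac in kb (y axis) at each BAF subunit gene, within 5 kb of the TSS (top) and in the gene body (bottom). Points are the 2 control (blue) and 2 4-OHT (red) replicates, and lines are their means. Both 4-OHT points lie above both control points at *Smarca4* and below them at *Smarcd2* in both panels.

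At the ATPase genes H3K27ac differed in opposite directions. *Smarca4* had 2875 and 2450 bp of H3K27ac within 5 kb in the control replicates and 3250 and 3375 bp after 4-OHT, a mean difference of 650 bp (SD 301 bp in controls and 88.4 bp after 4-OHT, n = 2 each; exact permutation p = 0.333). The promoter of the floxed gene stayed within a listed region in both 4-OHT replicates, over chr9:21418751-21422200. Upstream, at -24.1 kb from the TSS and over *1810026J23Rik* and *Yipf2*, chr9:21395076-21398000 had 2175 and 1825 bp in controls and 2900 and 2575 bp after 4-OHT. A region inside the gene, chr9:21474151-21474975, was listed over 200 and 0 bp in controls and over 825 and 525 bp after 4-OHT. In *Smarca2*, H3K27ac lay deep in the gene body, with 2500 and 3200 bp in controls and 2200 and 1825 bp after 4-OHT, lower in both (exact permutation p = 0.333). Of its 7 H3K27ac regions in the gene, 3 were listed in both control replicates and in neither 4-OHT replicate. A further 2 were listed after 4-OHT only, and in 4-OHT replicate 1 alone. The widest, chr19:26821451-26823525, contains the TSS of a short transcript at position 26822893 and kept nearly its whole length, with 2050 and 2050 bp in controls and 2000 and 1825 bp after 4-OHT. FLAG replicates 1 and 2 listed 200 and 75 bp in it, at places that did not overlap.

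Among the core subunits, *Smarcb1* had 1150 and 800 bp within 5 kb in controls and 1425 and 1375 bp after 4-OHT, a difference of 425 bp that exceeded the SDs of 247 and 35.4 bp (n = 2 each; exact permutation p = 0.333). In its gene body the arms overlapped, with 2512 and 1312 bp in controls and 3812 and 2012 bp after 4-OHT. Each same-numbered pair was higher after 4-OHT, so with samples paired by number *Smarcb1* joined the genes higher in the gene body, 7 in all. The share of all genes for this paired count was not computed. *Smarcc1* and *Smarcc2*, which encode the scaffold proteins Baf155 and Baf170, had overlapping values at the promoter. *Smarcc1* had 2225 and 2250 bp in controls against 2525 and 2225 bp, and *Smarcc2* had 1150 and 1375 bp against 1250 and 1275 bp, with equal means. Their gene bodies were higher, by 1025 bp in *Smarcc1* and 525 bp in *Smarcc2*, though *Smarcc1* was not with regions under 500 bp left out. At *Smarcc2* part of that length came from a region at the 3′ end of the gene, chr10:127925726-127932150, which also covers *Myl6* and *Myl6b* and was listed over 5650 and 5325 bp in controls and 6375 and 6350 bp after 4-OHT.

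The Baf60 genes differed among themselves. *Smarcd1* was higher in all 3 windows as listed, but not with a narrower TSS window, nor within 50 kb once regions within 1 kb were joined. Within 5 kb it had 3775 and 3375 bp in controls and 3950 and 3875 bp after 4-OHT. A region at its 3′ end, chr15:99542901-99544675, within 5 kb of the TSS of *Gpd1*, had 675 and 400 bp in controls and 1675 and 1400 bp after 4-OHT. *Smarcd2* was the sole member that was lower in all 3 windows. It had 3290 and 3590 bp within 5 kb in controls and 2900 and 2850 bp after 4-OHT, and 3950 and 4650 bp in the gene body against 2475 and 2650 bp (mean difference -1737.5 bp, SD 495 and 124 bp, n = 2 each; exact permutation p = 0.333). Most of the difference lay in the region chr11:106127801-106131325, which holds the Brg1-bound region and had 2750 and 3525 bp in controls and 1300 and 1475 bp after 4-OHT. The H3K27ac on either side of the first TSS differed less. Downstream it had 1200 and 1125 bp in controls and 1075 and 1025 bp after 4-OHT, and upstream 475 and 425 bp against 550 and 550 bp. With a narrower TSS window, with regions under 500 bp left out or with regions within 1 kb joined, *Smarcd2* was no longer lower within 5 kb, whereas in the gene body it was lower in every alternative run. *Smarcd3* had no H3K27ac in the gene, and within 50 kb its values overlapped (3075 and 2350 bp in controls, 3125 and 2700 bp after 4-OHT).

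At the ARID genes the promoter H3K27ac was wide and differed little. *Arid1a* had 6217 and 6417 bp within 5 kb in controls and 6267 and 6317 bp after 4-OHT, the longest of the 10, and *Arid1b* had 3750 and 3850 bp against 3875 and 3825 bp. Inside *Arid1a*, in contrast, the length was 10459 and 11584 bp in controls and 13959 and 14584 bp after 4-OHT (SD 795 and 442 bp, n = 2 each; exact permutation p = 0.333). Much of that difference lay in 3 intronic regions listed barely or not at all in controls. The region chr4:133268576-133269575 was listed over 0 bp in both controls and 850 and 650 bp after 4-OHT, and chr4:133289926-133291450 over 50 and 25 bp against 1050 and 1225 bp. A further such region, chr4:133301751-133302900, had 100 and 0 bp against 1075 and 725 bp. No FLAG list had a region in these 3. In *Arid1b* the intronic region chr17:5078026-5079175, 84.3 kb from the TSS, had 600 and 75 bp in controls and 1150 and 975 bp after 4-OHT. Of the 10 H3K27ac regions in that gene, this 1 was higher and 2 were lower, of which 1 was listed in both controls and in neither 4-OHT replicate.

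Within 5 kb of the TSS, Polycomb marks were found at 3 of the 10 members, of which 2 were the genes without H3K27ac in that window. H3K27me3 was listed within 5 kb of the TSS in at least 2 of 3 control replicates at *Smarca2*, *Smarcd2* and *Smarcd3*, against 14.2% of genes. Suz12 was listed in both control replicates at *Smarcd3* alone, against 6.03% of genes. At *Smarcd3* H3K27me3 covered 1850, 4850 and 4525 bp in control replicates 1, 2 and 3 and 1250, 4650 and 3475 bp in the same-numbered 4-OHT replicates, with the low value in replicate 1 of each arm. Suz12 covered 1325 and 1225 bp there in controls and 1175 and 1800 bp after 4-OHT. All but 100 bp of the last value lay in the region chr5:24107051-24108750 over the TSS, so both marks were still listed at the gene after 4-OHT. *Smarca2* had 2475, 1975 and 1100 bp of H3K27me3 in controls and 1900, 1275 and 575 bp after 4-OHT, on both sides of its TSS. Suz12 at *Smarca2* was listed in replicate 2 of each arm, over 400 bp in control and 475 bp after 4-OHT. At *Smarcd2*, where H3K27me3 covered 886, 450 and 475 bp in controls and 500, 250 and 225 bp after 4-OHT, the mark lay at -3.99 and -4.74 kb from the TSS, over the neighbouring gene *Tcam1*. *Smarcd1* had both marks only farther away, over *Accn2*, centred between -31.9 and -30.5 kb from its TSS. Within 50 kb its H3K27me3 covered 475, 2000 and 1850 bp in controls and 325, 1675 and 1375 bp after 4-OHT, and Suz12 500 and 200 bp against 400 and 600 bp.

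H3K27me3 was shorter after 4-OHT in each of the 3 same-numbered pairs at all 3 genes, a pattern shared by 43.9% of the 4182 genes with the mark. The two-sided exact sign-flip test over 3 pairs cannot go under 0.25, the value found at each gene. By the unpaired rule none of the 3 had all 4-OHT values below all control values, against 12% of genes. The 4-OHT lists covered 0.726 times the length of the control lists in all, 7.12 ± 2.17 Mb against 9.81 ± 1.33 Mb (SD, n = 3 each; exact permutation p = 0.2). The 4-OHT list was the shorter in each same-numbered pair. Divided by these totals, only *Smarcd2* of the 3 remained shorter in each pair, against 680 of the 4182 genes, and *Smarcd3* was longer in all 3, with a log2 ratio of 0.15 in place of -0.26. The median log2 ratio over all 4182 genes was -0.62 as listed and -0.24 scaled.

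**Figure D3:**
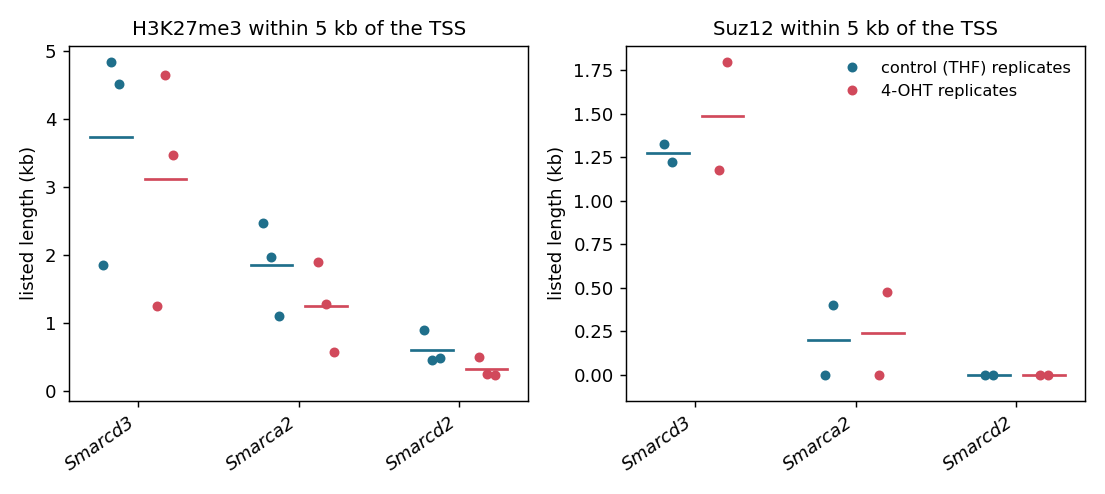
Listed length in kb (y axis) of H3K27me3 (left) and Suz12 (right) within 5 kb of the TSS of the 3 BAF subunit genes with H3K27me3. Points are control (blue) and 4-OHT (red) replicates in order of their number from left to right, and lines are means. For H3K27me3 at *Smarcd3* and *Smarca2* the SD within each arm exceeds the difference between the means.

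Start-site sequence was compared without a test. Over the 1000 bp around the TSS, their median GC content was 67.0% against 54.8% for all protein-coding genes, and the median ratio of observed to expected CpG was 0.86 against 0.55. *Smarca2* and *Smarcd3*, without H3K27ac within 5 kb of the first TSS, had CpG ratios of 0.84 and 0.81. These lay within the range of the members with H3K27ac there (0.58 at *Arid1a* to 0.95 at *Arid1b*). *Arid1a* had the lowest GC content of the 10, 55.0%, next to the median of all genes. Only the 5′ end of each gene record was measured, and a relation of base content to Brg1 binding was not tested.

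A list of 21 further subunit genes of BAF, PBAF and ncBAF complexes was described in the same way, and 20 were found in the annotation. A Brg1-bound region lay within 5 kb of the TSS at 2 of 20, *Bcl11b* and *Arid2*, against 2.11% of all genes. *Arid2* encodes the ARID subunit of PBAF. In the gene body the count was 2 of 20 (*Dpf1* and *Bcl11b*, against 3.64% of genes), and within 50 kb 6 of 20 (against 9.34%). Of the 15 further subunit genes with H3K27ac within 5 kb, 6 were higher and 3 were lower in both 4-OHT replicates. Of all genes with H3K27ac in the window, 39.7% and 12.5% were, and the H3K27ac shares that follow have the same kind of base. In the gene body 8 of 18 were higher and 5 lower (33.4% and 18.3% of all genes). The median log2 ratio there was 0.01, against 0.37 for the 9 members with H3K27ac and 0.12 for all genes. Within 50 kb 9 of 19 were higher and 6 lower (39.7% and 20% of all genes). The median in that window was 0.14, against 0.19 for the members and 0.13 for all genes. After scaling to the total covered length, 9 of 18 were higher and 0 lower in the gene body (43.7% and 15.8% of all genes). Within 50 kb scaling gave 12 of 19 higher and 6 lower (49.6% and 16.8% of all genes), and within 5 kb 7 of 15 higher and 1 lower (51.2% and 9.07%). Within 5 kb *Arid2* had 5275 and 4800 bp in controls and 5650 and 5625 bp after 4-OHT, and within 50 kb its values overlapped. H3K27me3 was listed within 5 kb in at least 2 control replicates at 2 of 20, *Ss18l1* and *Bcl11a*, against 14.2% of all genes. *Ss18l1* had 825, 600 and 425 bp in controls and 200, 375 and 0 bp after 4-OHT. All 3 lay below all controls, as at 12% of genes with the mark. The exact permutation p was 0.1, the smallest that 3 against 3 replicates can give. *Bcl11a* had 975, 1045 and 600 bp against 250, 1045 and 0 bp, and its arms overlapped. Within 5 kb *Bcl11b* had H3K27me3 in 1 control replicate (275 bp) and Suz12 in neither control but in both 4-OHT replicates (175 and 250 bp). In its gene body H3K27me3 covered 225, 1525 and 400 bp in controls and 0, 1250 and 200 bp after 4-OHT.

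The genes most like *Smarca4* in listed length over all 17 lists within 5 kb of the TSS were *Eif4h*, *Lsm4* and *Fiz1*, with mean absolute differences of 16.2, 20.6 and 23.5 bp per list. *Eif4h* had 2850 and 2600 bp of H3K27ac in controls and 3250 and 3275 bp after 4-OHT, and, like *Smarca4*, 25 bp in FLAG replicate 1. These 3 genes were picked by these same lengths. Their likeness to *Smarca4*, including the lack of a Polycomb mark in any list, follows from that choice. Most lists held 0 bp at *Smarca4* and at these genes, which lowers the mean differences.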

How the data were processed

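Per the labels and file headers, the authors aligned reads to mm9 with Bowtie (version not given in the sources used here) and deposited, for each replicate, regions enriched over input under a Poissonian model at thresholds of 1e-06 (FLAG, also at least 2-fold over input) or 1e-12 (other marks). The 11 input samples have no list and were not used here. Region edges are multiples of 25 bp, and regions of a list lie at least 225 bp apart. A list entry depends on the calling threshold, so a longer listed length is not a fold change in signal.

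Regions sharing at least 1 bp were merged over replicates. Windows were 5 kb and 50 kb on each side of the 5′ end of the gene record, and the gene body. Log2 ratios used a pseudocount of 25 bp. Python 3.11.15, NumPy 2.4.6 and Matplotlib 3.10.9 were used, and the interval functions were tested on simulated data. All 10 members were named, and single regions were described when they lay in these windows and, for distant H3K27ac, overlapped a described FLAG region or differed by at least 500 bp on average with no overlap between arms. The members and lists were chosen with earlier results of these data known. Same-numbered H3K27me3 samples deviated together from their group means over 4182 genes (correlations 0.91, 0.82 and 0.76 for numbers 1, 2 and 3), so the numbers were taken as pairs, as judged from the lists. Unlike-numbered samples 2 and 3 correlated at 0.58 and 0.65, so those numbers are less clearly separated. The paired H3K27me3 count was chosen after seeing the data. Other windows, region widths, scalings, start sites, replicate requirements and left-out replicates were tried.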

Additional observations from a re-analysis of the deposited data

How the results depend on the processing

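Over 16 results and 144 alternative values, 105 stayed within 1.5 times the reported count or within 1 SD of the reported median, and no median log2 ratio of H3K27ac changed sign. The causes of the changes below were not tested. Lists without scores limit all of them, since depth is unknown and FLAG replicate 3 holds few regions.

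Brg1-bound counts depended on the replicates required. A region in any FLAG replicate gave 5 members within 5 kb, 5 in the gene body and 8 within 50 kb, and a region in all 3 gave 0 in each. Leaving out 1 FLAG replicate gave 0 to 2 members within 5 kb, 0 to 3 in the gene body and 0 to 4 within 50 kb, with 0 whenever replicate 1 or replicate 2 was absent. Within 5 kb, 1 member was left with a narrower window or with at least 50% of the region required inside the window.

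For H3K27ac within 5 kb, 5 genes in place of 3 were higher after scaling to the total covered length. The count lower was 0 in place of 1 with regions of at least 500 bp only, with regions within 1 kb joined or with a narrower window, and 2 with every annotated TSS. Leaving out 1 replicate gave 1 to 3 genes lower (3 without control replicate 1) and 3 to 6 higher (6 without control replicate 2 and 5 without 4-OHT replicate 2). Within 50 kb, 2 genes in place of 1 were lower with every annotated TSS or with 50 kb beyond both gene ends, where *Smarca2* joined *Smarcd2*.

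H3K27ac replicates share numbers only in pairs of 2, and deviations of same-numbered samples correlated at 0.44 over 11973 genes. As a replicate block, with the same direction required in each pair, 3 genes were higher and 1 lower within 5 kb, 7 and 2 in the gene body (*Smarcb1* added), and 8 and 1 within 50 kb (*Smarcb1* and *Smarcd3* added). This changed no count by over 1.5 times. The share of all genes higher in each pair was not computed, so the paired counts of higher genes have no background beside them. Lower in each pair were 1895 of 11973 genes within 5 kb, 2748 of 12485 in the gene body and 4083 of 17138 within 50 kb. The paired median log2 ratios were 0.05, 0.37 and 0.19. Leaving out 1 replicate gave unpaired medians of 0.01 to 0.09 within 5 kb, 0.25 to 0.38 in the gene body and 0.11 to 0.26 within 50 kb.

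Suz12 was listed at 2 members in place of 1 when either control replicate sufficed, and at 1 to 2 with 1 control replicate left out. For H3K27me3, chosen after seeing the data, 3 members were lower in each pair, 1 after scaling to the total covered length and 0 with no replicate block, and 3 whichever pair was left out. Over all 4182 genes with the mark that scaling changed the split of unpaired calls from 500 lower and 8 higher to 241 lower and 205 higher. It also turned the median log2 ratio of the 3 members from -0.56 to 0.08, while that of all genes went from -0.62 to -0.24.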
